A study of Homo sapiens with 2 samples.

Results

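The neuropeptide genes studied here were 10 of the 33538 genes counted in single cells of 2 Ewing sarcoma lines, CHLA9 and TC71. They comprised the precursors CCK, PENK, NPY, GRP and GAL, the granins VGF, SCG2 and CHGB, and the receptors NPY1R and NPY5R. The genes were chosen by their measured levels in these cells, so their levels, their spread over cells and their differences are given as a description, with no test. Ewing sarcoma is a tumour of bone and soft tissue driven by a fusion of EWSR1 with an ETS gene, most often FLI1. No treatment is named, and each line gave 1 library, TC71 in RPMI with 10% serum and CHLA9 in IMDM with 20%, and CHLA9 was sequenced again on a second instrument. Line, medium and sequencing depth therefore cannot be told apart, and no spread between replicates could be measured. The third line of the series was not analysed here.

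Neuropeptides are made as longer precursor proteins that enter the secretory pathway, lose their signal peptide, are sorted into dense core granules and are cut into active peptides by convertases and carboxypeptidases. Granins are acidic proteins that help form those granules and are themselves cut into peptides. The released peptides act on G protein coupled receptors, and NPY acting through NPY1R and NPY5R, like CCK and GRP, has long been studied in Ewing sarcoma as a possible growth signal.

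A cell entered with 5000 or more UMIs (a UMI is a tag that counts 1 captured RNA molecule), 2000 or more genes and no more than 15% of its UMIs from mitochondrial genes. This kept 4524 of 5077 barcodes in CHLA9, with a median of 34656 UMIs, and 1729 of 8468 in TC71, with a median of 33370. A level is the summed UMIs of a gene per 1000000 UMIs of all kept cells of a line (CPM), and all 95% intervals cover counting error only. Of 10 Ewing sarcoma markers, 10 reached 1 CPM in both lines, whereas 3 of 8 sympathoadrenal markers did. Of those 8, TH and DBH had no UMI in either line, HAND2 is given below, ISL1 had 11.4 CPM in CHLA9 and 12.0 in TC71, and GATA3 2.69 and 1.61. The libraries shared 16 barcodes, of which 3 were kept in both.

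The starts of CCK, GRP and VGF are shown because CCK had the highest level of the 10 genes in CHLA9, GRP had it in TC71, and the VGF window holds a motif that the others lack. The RefSeq promoter table (GRCh38.p14) held 6 of the 10 genes in 8 windows, and each sequence is the 250 bases before a start, 5′ to 3′ on the gene's strand. Capitals mark the ETS core GGAA and the cyclic AMP response element (CRE) TGACGTCA or its shorter form TGACG, each read on both strands. The CCK window is chr3:42266186-42266435 on the minus strand, the GRP window chr18:59219908-59220157 on the plus strand, and the VGF window chr7:101165570-101165819 on the minus strand.
CCK: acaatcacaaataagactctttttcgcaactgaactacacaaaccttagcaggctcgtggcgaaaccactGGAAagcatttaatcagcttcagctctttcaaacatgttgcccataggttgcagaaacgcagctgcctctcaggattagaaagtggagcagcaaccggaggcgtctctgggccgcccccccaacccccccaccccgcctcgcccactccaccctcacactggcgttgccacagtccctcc
GRP: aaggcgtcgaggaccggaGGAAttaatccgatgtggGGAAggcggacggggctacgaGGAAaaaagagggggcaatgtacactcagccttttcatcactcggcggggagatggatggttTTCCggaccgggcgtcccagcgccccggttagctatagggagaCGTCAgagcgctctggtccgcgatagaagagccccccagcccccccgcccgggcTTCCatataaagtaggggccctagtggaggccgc
VGF: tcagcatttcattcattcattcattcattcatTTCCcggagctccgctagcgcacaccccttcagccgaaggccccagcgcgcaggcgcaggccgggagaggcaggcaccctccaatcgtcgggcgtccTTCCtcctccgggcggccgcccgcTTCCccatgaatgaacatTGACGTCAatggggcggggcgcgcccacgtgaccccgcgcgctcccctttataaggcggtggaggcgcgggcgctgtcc
The VGF window held 1 full CRE, a motif present in 1.65% of 35116 promoters of the same length, and none of the other 7 windows held one. GRP and NPY1R held 1 short form each outside a full CRE, against 21.2% of all promoters with at least 1. The ETS core stood 1 time in the CCK window shown, 5 times in the other CCK window, chr3:42263948-42264197, 5 times in that of GRP and 3 times in that of VGF, but 92.7% of all promoters held it. The tandem GGAAGGAA, found in 3.06% of promoters, and the AP-1 motif TGACTCA, found in 4.20%, were in none of the 8 windows. These matches describe letters only. VGF, with the full CRE, was low in both lines, as given below.

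CCK, the precursor of cholecystokinin, a gut and brain peptide, separated the lines most widely. It reached 1671 CPM in CHLA9 (95% interval 1665 to 1678, from 292465 UMIs), where it ranked 84 among all genes, and 0.840 CPM in TC71 (0.621 to 1.11, from 49 UMIs). The level was 1991-fold higher in CHLA9, a log2 difference of 10.96 (10.56 to 11.39). CCK was also carried by nearly every CHLA9 cell. With every cell thinned to 10000 UMIs, which 4510 CHLA9 and 1670 TC71 cells allowed, a CCK UMI was found in 99.0% of cells of CHLA9 and 0.659% of those of TC71, and without thinning the shares were 99.9% and 2.37%. A gene on the other strand, AC018358.1, overlaps the first exons of CCK. It had 2.55 CPM in CHLA9 and no UMI in TC71, and whether strand was used in the counting is not given in the sources used here.

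PENK, the precursor of the enkephalins, the opioid peptides, showed the same direction at a lower level. Its level was 146 CPM in CHLA9 (144 to 148). In TC71 23 UMIs gave 0.394 CPM (0.250 to 0.591), and the log2 difference was 8.53 (7.95 to 9.19). At 10000 UMIs, a PENK UMI was found in 59.5% of cells of CHLA9 and 0.479% of those of TC71. Without thinning the PENK shares were 83.5% and 1.21%. PENK was thus seen in fewer CHLA9 cells than CCK, but a share of cells with a UMI also falls with the level of a gene.

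GRP, the precursor of gastrin-releasing peptide, was the one abundant member that the lines had in common. CHLA9 had 1017 CPM (1012 to 1022) and TC71 836 CPM (829 to 844), ranks 132 and 161 of all genes. The ratio was 1.22 and lay within 2-fold, and 99.4% and 98.3% of cells had a UMI at 10000 UMIs.

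GAL, the precursor of galanin, ran the other way. CHLA9 had 2.05 CPM (1.84 to 2.27) and TC71 11.6 CPM (10.8 to 12.5), 5.69-fold more. Its UMIs were found in 1.51% of CHLA9 and 9.52% of TC71 cells at 10000 UMIs.

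NPY, the precursor of neuropeptide Y, was close to absent, although both its receptors listed here were measured. It had 116 UMIs in CHLA9, or 0.663 CPM, and 16 UMIs in TC71, or 0.274 CPM. The CHLA9 UMIs were not spread over the line: 109 of them came from 2 barcodes, with 37 and 72, and the other 7 came from 7 cells. In TC71 the 16 UMIs lay in 14 cells, with at most 3 in a cell. Without those 2 barcodes the CHLA9 level was 0.0400 CPM, below that of TC71.

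The 2 CHLA9 barcodes with NPY stood apart from the rest of their line in other members as well. They held 56071 and 62500 UMIs, and had 1 and 0 CCK UMIs, where the other CHLA9 cells averaged 1673 CPM of CCK. Each had 5 GAL UMIs, together 84.3 CPM against 1.99 CPM in the rest, whereas GRP stood at 1493 CPM against 1017. PENK differed between them, with 45 UMIs in one and 1 in the other. Among genes named after their values were seen, TMSB4X (a thymosin that binds actin) had 240 and 209 UMIs and NEFM (a neurofilament) 250 and 31, against 2.45 and 0.0171 CPM in the rest of CHLA9. These cells were also high in ANXA1, S100A10 and MMP2, at 717, 540 and 455 CPM against 18.4, 2.44 and 1.90. Some of these genes were not rare in the other line. TC71 had 387 CPM of ANXA1, 166 of TMSB4X, 85.9 of S100A10 and 12.0 of NEFM, but 0.360 of MMP2. The 2 barcodes had Scrublet doublet scores of 0.0266 and 0.0256, and what these cells are was not tested.

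The granins were low. SCG2, secretogranin II, the precursor of secretoneurin, was the highest. Its level was 17.2 CPM in CHLA9 (16.6 to 17.8), against 5.55 CPM (4.96 to 6.19) for TC71, so that the log2 difference was 1.63 (1.47 to 1.80). VGF, a growth factor induced precursor, gave 70 UMIs in CHLA9, or 0.400 CPM, and 62 in TC71, or 1.06 CPM. CHGB, chromogranin B, had 0.326 and 0.103 CPM, from 57 and 6 UMIs. At 10000 UMIs, SCG2 was seen in 13.1% and 4.61% of cells, VGF in 0.266% and 1.14%, and CHGB in 0.288% and 0.180%.

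Free RNA in droplets can give a cell a UMI of a gene it does not express. For comparison, 9 immune, endothelial and epithelial markers were counted the same way. Each library is 1 line, so these markers cannot gauge free RNA from the line's own cells, and no UMI is called background from them. The highest share among them was 0.266% of CHLA9 cells, for LYZ, and 1.14% of TC71 cells, for EPCAM. In thinned CHLA9 cells the VGF share equalled that of LYZ. The CHGB share of 0.288% (95% interval 0.154 to 0.492) could not be told from that of LYZ. Over all UMIs of CHLA9, however, both stood above LYZ. VGF had 0.400 CPM (0.312 to 0.505) and CHGB 0.326 CPM (0.247 to 0.422), against 0.166 CPM (0.111 to 0.238) for LYZ. Without thinning, the shares of CHLA9 cells were 1.46% for VGF, 1.15% for CHGB and 0.619% for LYZ. The source of the VGF and CHGB UMIs was not tested. The NPY share in CHLA9 was lower still, and 109 of its 116 UMIs came from the 2 barcodes above. In TC71 the highest share rests on EPCAM alone, and the next marker, PTPRC, was at 0.180%. CHGB, NPY, PENK, CCK, NPY5R and VGF were at or below the EPCAM share in TC71, but except for CHGB, which equalled PTPRC, they lay above every other marker, with CCK at 0.659% and NPY5R at 0.898%. Whether the few UMIs of these genes come from expression or from free RNA was not tested.

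NPY1R, the Y1 receptor of neuropeptide Y, was the higher of the receptor pair. CHLA9 had 64.0 CPM (62.8 to 65.2) and TC71 18.1 CPM (17.0 to 19.2), a 3.54-fold difference. NPY5R, the Y5 receptor, had 6.40 CPM (6.03 to 6.79) in CHLA9 and 1.2 CPM (0.935 to 1.52) in TC71, a 5.34-fold difference. At 10000 UMIs, NPY1R was seen in 41.7% and 15.8% of cells and NPY5R in 6.12% and 0.898%. The genes lie head to head on chromosome 4, NPY1R at 163323962 to 163344832 on the minus strand and NPY5R at 163343892 to 163351934 on the plus strand (GRCh38, GENCODE 44). In this annotation they overlap by 941 bases, and reads from the overlap may be split between them. By RefSeq, where the nearest starts of the pair lie 11296 bases apart, they do not overlap. The GENCODE overlap lies at the starts of both genes, however, while the kit reads 3′ ends, and reads within it were not counted apart. Over CHLA9 cells the counts of the pair had a Spearman rho of 0.0281 (4510 cells), which is no finding in counts this sparse.

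**Figure D1:**
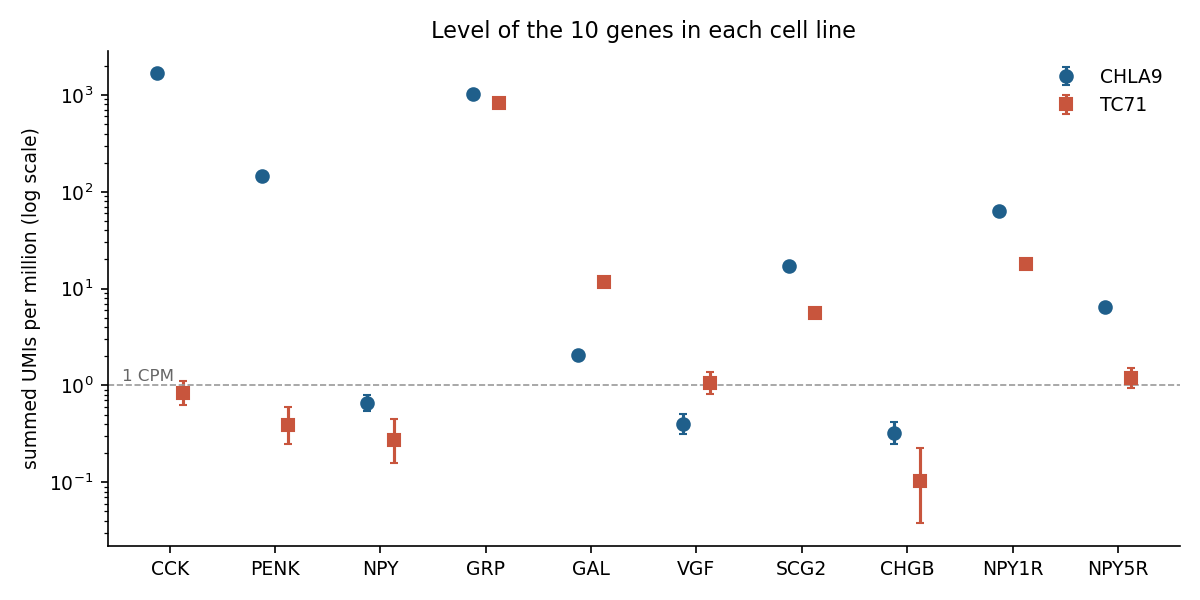
Level of each of the 10 genes in CHLA9 (circles) and TC71 (squares), in CPM on a log axis, with 95% counting intervals and a dashed line at 1 CPM. CCK spans from 1671 CPM in CHLA9 to 0.840 CPM in TC71, GRP is at 1017 and 836 CPM, and NPY and CHGB lie below 1 CPM in both lines.

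In order of level, CHLA9 ran from CCK through GRP, PENK, NPY1R, SCG2, NPY5R and GAL to NPY, VGF and CHGB. TC71 ran from GRP through NPY1R, GAL, SCG2, NPY5R, VGF and CCK to PENK, NPY and CHGB. In TC71 the counting intervals of the neighbours NPY5R and VGF, VGF and CCK, PENK and NPY, and NPY and CHGB overlapped, and in CHLA9 those of VGF and CHGB did. These are 3′ counts, which carry no gene length, but capture can differ between genes.

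Of the 10 genes, 8 reached 1 CPM in a line, and NPY and CHGB did not. Of these 8, 5 were at least 2-fold higher in CHLA9 (CCK, PENK, SCG2, NPY1R and NPY5R) against 19.8% of all 13552 genes that reached 1 CPM, and 2 were at least 2-fold higher in TC71 (GAL and VGF) against 13.9%. Because the genes were listed with these levels known, nothing is read from those counts. The median log2 difference of all genes was 0.205, toward CHLA9. HAND2, a sympathoadrenal marker, was at 87.0 CPM in CHLA9 and 9.97 in TC71, and 4 fibroblast markers summed to 74.4 and 14.3 CPM. Most of that sum was COL1A1, at 56.0 and 10.2 CPM. DCN had 13.6 and 2.86 CPM, LUM 4.76 and 1.29, and PDGFRA was near absent at 0.0514 and 0.0343. Their part in these differences was not tested.

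Among the receptors for the listed ligands, most were not detectable at this depth. CCKAR and CCKBR, the receptors of cholecystokinin, had 1 and 0 UMIs in CHLA9, the line with abundant CCK, and 0 and 1 in TC71. GRPR, the receptor of gastrin-releasing peptide, had no UMI in either line, which allows up to 0.0171 CPM in CHLA9 and 0.0514 CPM in TC71 (3 counts per library), and NMBR, the receptor of the related neuromedin B, had 1 UMI in each. Thus GRP was abundant in both lines where its receptor was not seen. Of the opioid receptors, OPRD1 was measured at 2.30 CPM in CHLA9 and 8.65 CPM in TC71, the line with 23 PENK UMIs, and OPRK1 and OPRM1 had at most 1 UMI in a line. For galanin, GALR1 and GALR2 stayed at or below 0.0514 CPM, and GALR3 had 54 UMIs (0.309 CPM) in CHLA9 and none in TC71. NPY2R had no UMI in CHLA9 and 11 in TC71, and NPY4R, which has a near-identical copy and is therefore uncertain, had none.

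The wider peptide list held 54 precursors, of which 16 reached 1 CPM in a line. Of these, 7 were at least 2-fold higher in CHLA9 (43.8%, against 19.8% of all genes), 6 in TC71 (37.5%, against 13.9%) and 3 within 2-fold, and their median log2 difference was 0.63. NPW, the precursor of neuropeptide W, was abundant in both lines at 1152 and 726 CPM, like GRP. The CHLA9 side also held NMB, the precursor of neuromedin B, at 171 against 57.3 CPM, CALCB, a calcitonin gene-related peptide, at 154 against 39.4 CPM, and NPB (neuropeptide B) at 48.8 against 4.75 CPM. The TC71 side held UTS2 (urotensin 2) at 149 against 1.06 CPM, POMC, the precursor of corticotropin and beta-endorphin, at 72.0 against 1.09 CPM, and NTS (neurotensin) at 39.2 against 0.0457 CPM. The list, like the 10 genes, was drawn up with earlier results known.

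Of 67 receptor genes, 18 reached 1 CPM, 7 of them at least 2-fold higher in CHLA9 (38.9%, against 19.8% of all genes) and 5 in TC71 (27.8%, against 13.9%), with a median log2 difference of -0.24. PTH1R, the parathyroid hormone receptor, was at 36.6 CPM in CHLA9 and 0.703 in TC71, and EDNRA, an endothelin receptor, at 51.6 and 6.03 CPM. In TC71, AVPR1A, a vasopressin receptor, had 20.1 CPM against no UMI in CHLA9, and QRFPR had 12.4 against 0.0857 CPM. Of the CGRP and adrenomedullin receptor parts, CALCRL had 13.9 and 16.0 CPM, RAMP1 113 and 150 CPM, and RAMP2 118 and 18.9 CPM. Leaving out the accessory RAMP proteins, NPY1R was the highest receptor of the list in CHLA9 and came after AVPR1A in TC71.

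Of 14 processing enzymes, 9 reached 1 CPM in CHLA9 and 12 in TC71. Of the 12 that did so in a line, 2 were at least 2-fold higher in CHLA9 (16.7%, near the 19.8% of all genes), 4 in TC71 (33.3%, against 13.9%) and 6 within 2-fold, with a median log2 difference of 0.01. PCSK2, a convertase of dense core granules, had 122 CPM in CHLA9 and 25.0 in TC71, and CPD, a carboxypeptidase, 14.4 and 6.53 CPM. CPE, the carboxypeptidase that trims basic residues from cut peptides, had 21.4 and 43.1 CPM. The enzymes that finish peptide ends were on the TC71 side: PAM, which amidates peptides such as CCK and GRP, had 14.3 CPM there and 0.0743 CPM in CHLA9, from 13 UMIs, and QPCT, which forms pyroglutamate, had 32.5 and 0.103 CPM. The line with the most CCK was thus the one with almost no PAM UMIs. FURIN (13.9 and 13.8 CPM), PCSK7 (42.0 and 28.2 CPM), TPST1 (11.9 and 6.10 CPM), TPST2 (10.6 and 10.6 CPM) and CTSL (7.45 and 12.0 CPM) lay within 2-fold.

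In the other groups the counts were small and are to be read against the same 19.8% and 13.9% of all genes. Of the granin list, 3 of 9 granin and granule genes reached 1 CPM, 1 higher in each direction (33.3%), with a median log2 difference of -0.44, and PCSK1N, an inhibitor of the convertases, had 31.9 and 43.3 CPM. Of 8 degrading peptidases, 5 reached 1 CPM, none at least 2-fold higher in CHLA9 and 1 in TC71 (20.0%), with a median of -0.05. ECE1 (18.0 and 10.3 CPM), NLN (71.4 and 73.9 CPM), PREP (14.6 and 20.2 CPM) and THOP1 (58.8 and 38.5 CPM) lay within 2-fold. Of 10 genes for release of dense core vesicles, 7 reached 1 CPM, 1 higher in CHLA9 (14.3%) and 2 in TC71 (28.6%), with a median of -0.72. The release genes were led by CADPS2, a vesicle priming protein, at 65.2 and 107 CPM, and VAMP2, a vesicle SNARE, at 71.4 and 26.5 CPM. RAB27A, a granule GTPase, had 3.82 and 10.6 CPM.

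**Figure D2:**
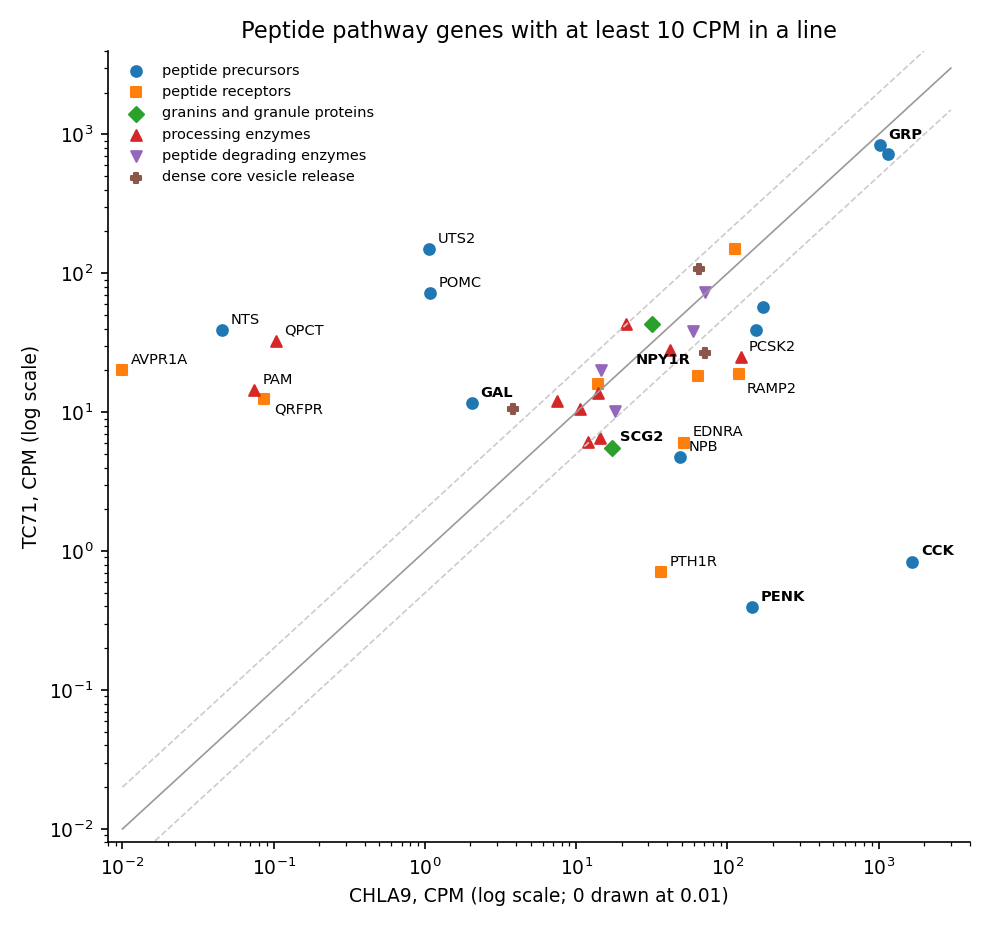
Level in TC71 against CHLA9, in CPM on log axes, of the genes of the 6 peptide lists with at least 10 CPM in a line that are named here; the solid line marks equal levels and the dashed lines 2-fold, and bold names are among the 10 genes. GRP lies near the line of equal levels, CCK and PENK far below it, and UTS2, POMC, NTS, QPCT and PAM far above it.

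How unevenly each gene was spread over cells was measured at 10000 UMIs as the excess variance, the variance beyond counting divided by the squared mean, which is 0 when cells differ by counting alone. CCK was broad but present throughout: its median was 15 UMIs in a CHLA9 cell, with 5 at the 10th and 31 at the 90th percentile and 101 in the highest cell. Its excess variance of 0.367 was the 4th highest of 77 genes of like mean (within 1.5-fold), whose median was 0.0277. GRP had a median of 9 UMIs in CHLA9 and 7 in TC71, and its excess variance, 0.287 and 0.280, ranked 5 of 97 and 3 of 115 genes of like mean. The spread of GRP was thus alike in both lines.

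PENK was more uneven than either. Its excess variance was 1.11 against a median of 0.0526 in 1100 genes of like mean, where it ranked 8, and the 10% of CHLA9 cells with most PENK held 40.8% of its UMIs. If every cell had the same PENK level, 77.5% of cells would have a UMI at this depth, against the 59.5% counted. SCG2 ranked 14 of 2529 in CHLA9, at 2.85, and 11 of 1792 in TC71, at 6.02. GAL ranked 7 of 1166 in CHLA9, at 23.9, from 68 cells with a UMI, and 10 of 2455 in TC71, at 2.65. These precursors were therefore concentrated in fewer cells than most genes of their level.

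For the receptors, NPY1R had an excess variance of 0.708 in CHLA9 and 0.855 in TC71, ranks 51 of 2103 and 80 of 2665. NPY5R had 1.34 in CHLA9, higher than PENK, but ranked 157 of the 1592 genes of its mean. VGF in TC71, with at most 1 UMI in a cell, showed no variance beyond counting, and the other genes were too low to be ranked. Within G2M cells alone, the value was 5.98 for GAL and 1.89 for SCG2 in CHLA9. Thinned to 5000 UMIs, NPY5R stood at 0.316 in CHLA9 and SCG2 at 15.4 in TC71, so the values of these low genes rest on few cells.

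**Figure D3:**
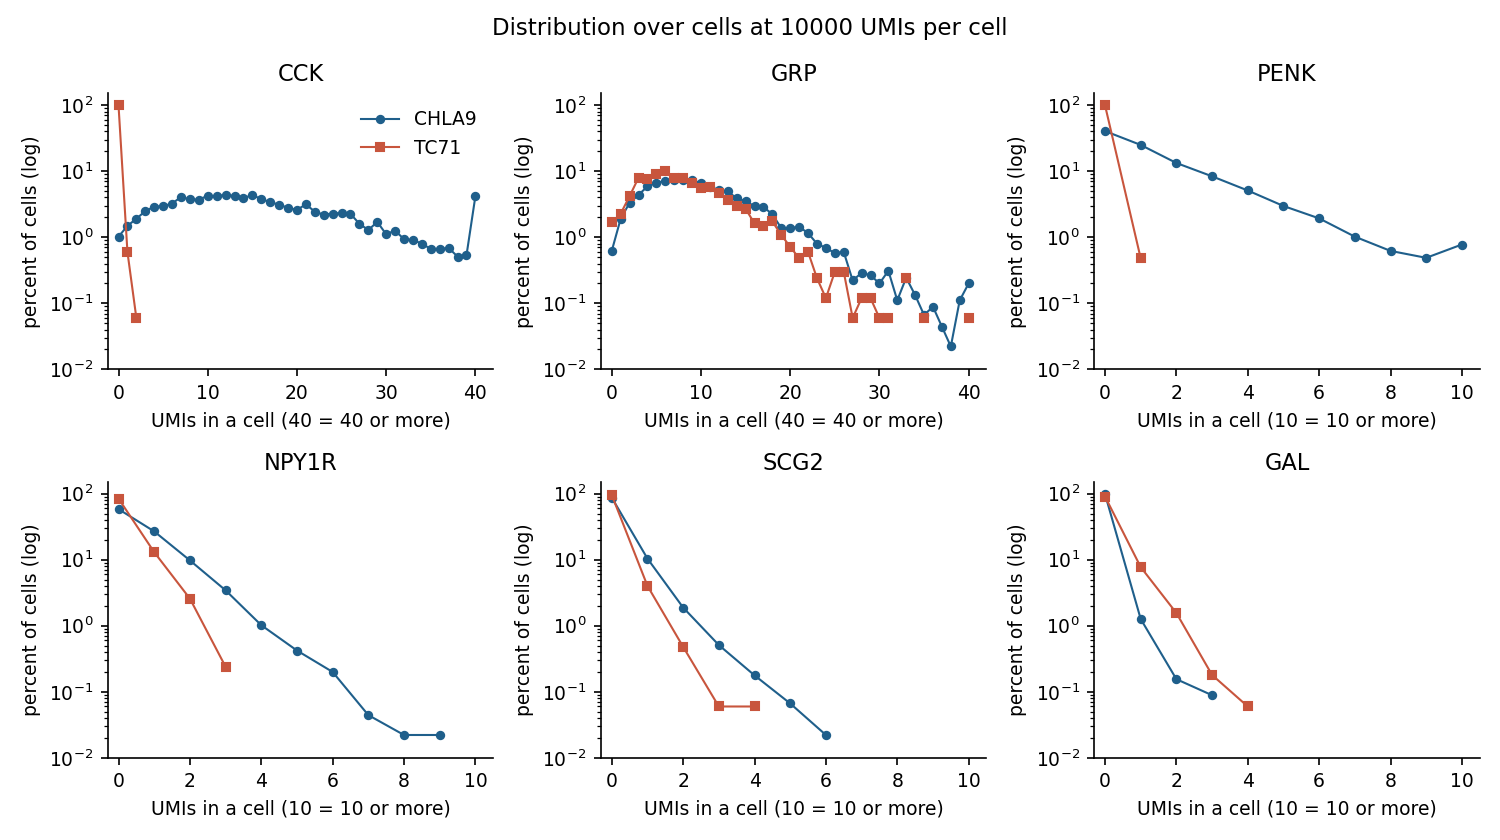
Percent of cells, on a log axis, with each number of UMIs at 10000 UMIs per cell, for 6 genes in CHLA9 (circles) and TC71 (squares); the last point of the axis pools higher counts. CCK spreads from 0 to over 40 UMIs in CHLA9 and stops at 2 in TC71, the curves of GRP nearly coincide, and GAL is the gene whose TC71 curve lies above that of CHLA9.

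Over the cells of a line, the counts of the members were at most weakly related. Over 21 pairs of genes with a UMI in at least 4% of cells of a line, the highest rho between members was 0.0768, for SCG2 and GRP in TC71, and the lowest -0.0458, for PENK and CCK in CHLA9. Within G1 or G2M cells alone the values ran from -0.0523 to 0.132, and within S cells from -0.0782, for GAL and GRP in TC71, to 0.145, for NPY1R and SCG2 in TC71. Correlations this weak in sparse counts are no finding.

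One gene outside the list reached a rho of 0.2 with GRP in both lines. SEC11C, a catalytic subunit of the signal peptidase, which removes signal peptides from precursors such as that of GRP, had the highest rho with GRP of 6142 genes in CHLA9, at 0.202 over 4510 cells, and the highest of 5483 genes in TC71, at 0.348 over 1670 cells. No other gene reached 0.2 with GRP, and no gene reached it with CCK, PENK or NPY1R. Below that limit, the next genes with GRP, named after their values were seen, were ITM2A at 0.193 and HSP90AA1 at 0.168 in CHLA9. In TC71 they were CAV1 at 0.187 and NPW at 0.178. In CHLA9 the value of SEC11C was thus little above that of ITM2A. CD99, also named after its values were seen, was among the 5 highest with GRP in both lines, at 0.156 in CHLA9 and 0.130 in TC71. The lowest rho with CCK was -0.207, for FH (fumarate hydratase), named after its value was seen. SEC11C stood at 413 CPM in CHLA9 and 707 CPM in TC71.

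SEC11C is also the gene just upstream of GRP on chromosome 18. It lies at 59139866 to 59158832 and GRP at 59220158 to 59230774, both on the plus strand (GRCh38, GENCODE 44), with a gap of 61326 bases. Within S, G1 and G2M cells the rho of SEC11C and GRP was 0.189, 0.189 and 0.202 in CHLA9 and 0.349, 0.376 and 0.314 in TC71, so it was seen in each phase. The other genes within 500000 bases of GRP that were seen in at least 20% of cells had lower values: LMAN1, a cargo receptor of the secretory pathway, 0.0277 and 0.0547, and ZNF532 0.00112 and 0.00907. These neighbours were looked at after SEC11C was seen to lie beside GRP, and the cells of a line share a library.

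**Figure D4:**
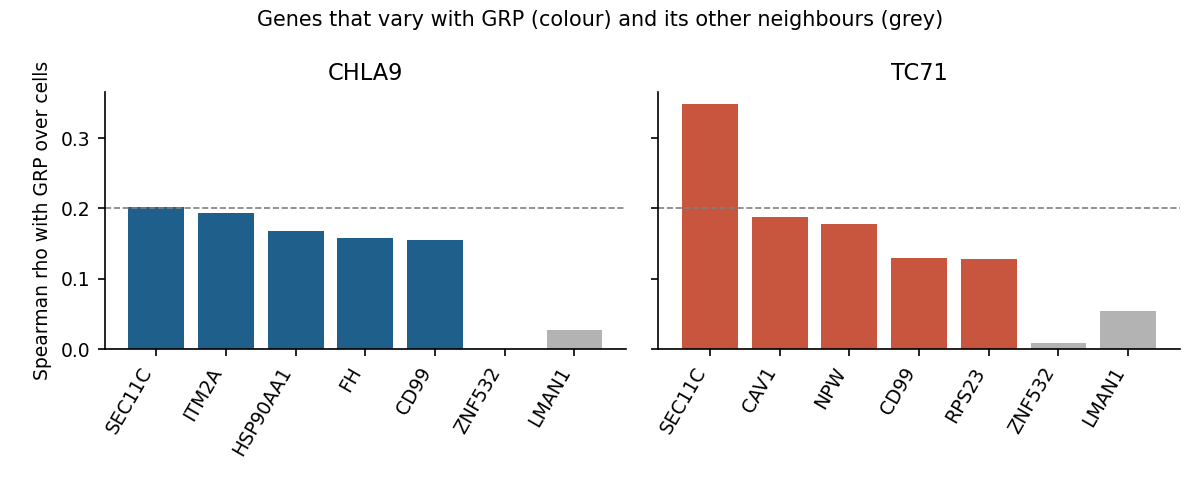
Spearman rho with GRP over cells at 10000 UMIs, for the 5 genes with the highest rho in each line (colour) and for the other measured genes within 500000 bases of GRP (grey), with a dashed line at 0.2. SEC11C leads in both lines, at 0.202 in CHLA9 and 0.348 in TC71, and the grey neighbours stay at 0.0547 or below.

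The link to the cell cycle was taken from phases called with the S and G2M gene sets of Seurat. CHLA9 had 1031 G1, 1654 S and 1839 G2M cells and TC71 had 428, 528 and 773, with median UMIs rising from 29324 in G1 to 40758 in G2M in CHLA9. The TC71 calls moved with the scoring: when genes seen in 10 or more cells set the phases they were 226, 834 and 669 cells, and with phases called at 10000 UMIs 201, 876 and 593. Genes with at least 500 UMIs in a line were compared, which left 6 members in CHLA9 and 3 in TC71, and a change of at least 1.2-fold was counted. A level in a phase is a share of all UMIs of the cells in that phase, not a count per cell.

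As a share of all UMIs, CCK was lower in G2M. It stood at 1899 CPM in G1 cells, 1831 in S cells and 1455 in G2M cells of CHLA9, 1.31-fold higher in G1 than in G2M (1.29 to 1.32). Its UMIs numbered 62093 in 1031 G1 cells, 113939 in 1654 S cells and 116433 in 1839 G2M cells. The count per cell was therefore not lower in G2M than in G1. By CPM, CCK was the 1 of 6 members at least 1.2-fold higher in G1, as were 11.7% of all genes compared, and 0 of 6 were at least 1.2-fold higher in G2M, as were 18.6%. NPY5R came close to that fold in the other direction, at 6.24 CPM in G1 and 7.46 in G2M, 0.836-fold (0.710 to 0.982). GRP and NPY1R were 1.18-fold and 1.16-fold higher in G1 than in G2M in CHLA9.

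PENK and SCG2 were lowest in S phase, a pattern noticed after their values were seen. PENK stood at 160 CPM in G1, 117 in S and 163 in G2M cells, and SCG2 at 19.3, 12.4 and 20.1 CPM. The G2M level was 1.40-fold (1.36 to 1.44) and 1.62-fold (1.49 to 1.77) that of S cells. With NPY5R, at 5.13 CPM in S, 3 of 6 members in CHLA9 were at least 1.2-fold lower in S than in both other phases, as were 4.17% of all genes compared. With phases called at 10000 UMIs, without cells over 3 median absolute deviations from their library's medians, or with at most 10% mitochondrial UMIs, PENK and SCG2 stayed past that fold and NPY5R did not. The replication-dependent histone genes HIST1H4C, HIST1H1B and HIST1H1D, made in S phase, were named after their values were seen. Among genes with a UMI in at least 20% of CHLA9 cells, they had the lowest rho with PENK, at -0.127, -0.113 and -0.106. This was not particular to PENK: the same 3 were the lowest with GRP in CHLA9, at -0.188, -0.181 and -0.178, and the first pair were the lowest with NPY1R in CHLA9, at -0.0801 and -0.0740.

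In TC71, GRP stood at 904, 836 and 805 CPM in G1, S and G2M cells, GAL at 13.1, 10.8 and 11.4 CPM, and NPY1R at 18.3, 18.4 and 17.8 CPM. None of the 3 was at least 1.2-fold higher in G1, as were 4.29% of all genes compared, at least 1.2-fold higher in G2M, as were 27.0%, or lower in S than in both, as were 1.50%. GAL passed 1.2-fold toward G1 with another seed and with phases called at 10000 UMIs. SCG2 had 324 UMIs in TC71, too few to be counted, at 5.82, 4.30 and 6.21 CPM. With genes seen in 10 or more cells setting the phases it stood at 9.39, 3.72 and 6.59 CPM and with phases called at 10000 UMIs at 11, 3.99 and 6.17 CPM, so that its G1 over G2M ratio went from 0.938 to 1.42 and 1.79. Whether the lines differed in these phase patterns was not tested.

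**Figure D5:**
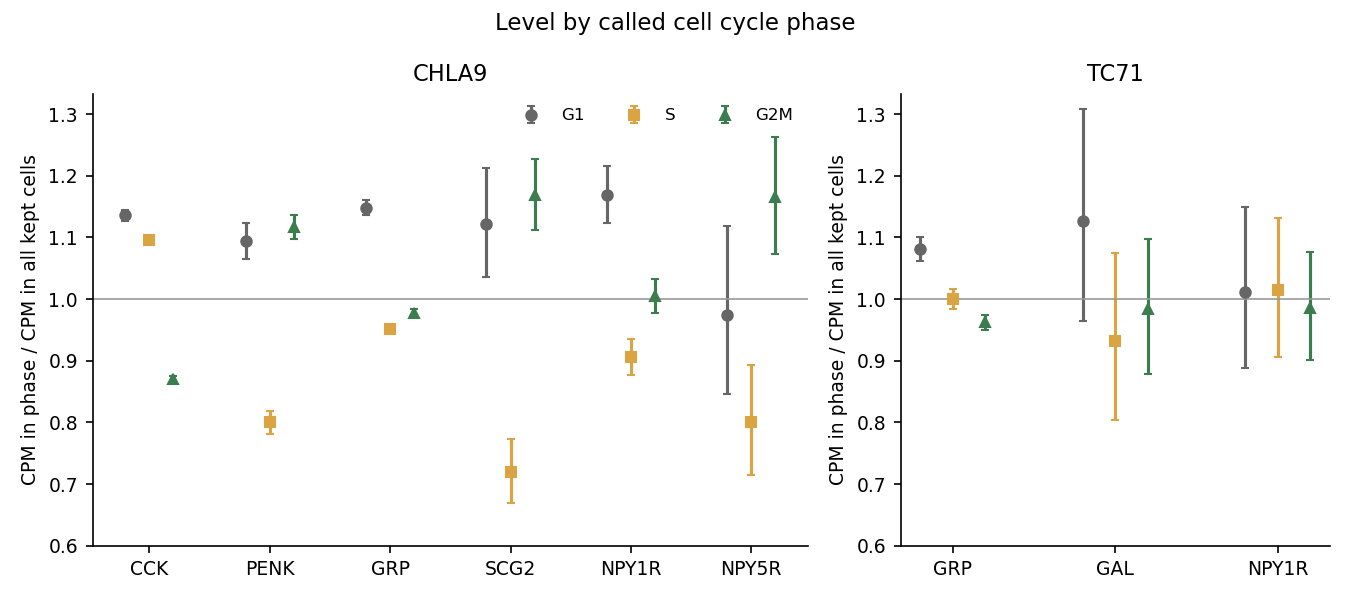
Level in G1 (circles), S (squares) and G2M cells (triangles) divided by the level in all kept cells of the line, with 95% counting intervals, for genes with at least 500 UMIs in CHLA9 and TC71. The CPM of CCK drops in G2M cells of CHLA9 (1455 CPM), while PENK and SCG2 are lowest in S cells (117 and 12.4 CPM).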

How the data were processed

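Single cells of CHLA9 and TC71 were captured with the 10x Genomics 3′ v3.1 kit, 1 library a line. The authors counted UMIs per gene and barcode with Cell Ranger 3.1.0 (build hg38) and deposited the raw counts, which are not normalized. Cells were kept with at least 5000 UMIs, 2000 genes and at most 15% mitochondrial UMIs. Depth over kept cells was 174975302 UMIs for CHLA9 and 58355173 for TC71. Scrublet marked 7.74% of CHLA9 and 0.694% of TC71 cells. Doublets were kept, and an alternative left out the top 8% of scores in each line.

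UMIs were summed per line and phase and scaled to CPM, with exact Poisson intervals, exact conditional intervals of ratios and Clopper-Pearson intervals of shares, all at 95%. With 1 library a line no test was made. A gene counted as apart from 2-fold between lines, with at least 1 CPM in a line, or from 1.2-fold between phases, with at least 500 UMIs. Shares, excess variance and Spearman's rho used cells thinned to 10000 UMIs (seed 1), which left out 14 CHLA9 and 59 TC71 cells. Phases were called in each library separately (Seurat 5.3.0, R 4.3.3). Other steps used Python 3.11.15, numpy 2.4.6, scipy 1.17.1, pandas 2.3.3 and scanpy 1.11.5, and the steps were tested on made-up counts of known answer.

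The genes and lists were chosen with earlier results of these data known. Named were the 10 genes, list genes with at least 10 CPM in a line, the receptors of the 10 genes' ligands, and, for genes seen in at least 20% of cells, the 3 genes with the highest rho where that reached 0.2. Alternatives changed the filters, doublets, depth, phase scoring, CPM and the minimum level. Those without shared barcodes, without the 2 NPY barcodes, and on GRP, SEC11C and S phase were added after seeing the data. A few marker and list genes are not reported here.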

Additional observations from a re-analysis of the deposited data

Results flagged for a closer look

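Signals of 8 of the 10 genes were also found among barcodes with fewer than 5000 UMIs, which no comparison used, above the limit that a count of 0 allows (3 counts, 4.16 CPM in the 721024 UMIs of such CHLA9 barcodes and 0.338 CPM in the 8878180 of TC71). In CHLA9 these barcodes held CCK at 312 CPM, GRP at 243 CPM, PENK at 56.9 CPM, NPY1R at 37.4 CPM and SCG2 at 5.55 CPM, against 1671, 1017, 146, 64.0 and 17.2 CPM in the kept cells. In TC71 they held GRP at 659 CPM, NPY1R at 19.5 CPM, GAL at 11.9 CPM and SCG2 at 4.39 CPM, against 836, 18.1, 11.6 and 5.55 CPM in the kept cells. CCK and NPY5R each stood at 1.24 CPM there and NPY at 0.563 CPM, against 0.840, 1.2 and 0.274 CPM. Whether these UMIs come from cells or from free RNA was not tested.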

How the results depend on the processing

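With 1 library a line, no replicate could be left out, and counting error is the one error measured. The counts of genes at least 2-fold apart between the lines changed at a minimum of 10 CPM, where the count higher in TC71 went from 2 to 1, since VGF was not tested, and that higher in CHLA9 from 5 to 4, since NPY5R was not. The G1 and G2M comparison sat near its fold. In CHLA9 the count of members at least 1.2-fold apart went from 1 to 2 with phases called at 10000 UMIs, without cells over 3 median absolute deviations, and with at most 10% mitochondrial UMIs, each time with NPY5R higher in G2M, and to 2 without the top 8% of Scrublet scores, with NPY1R higher in G1. In TC71 it went from 0 to 1, for GAL, with another seed and with phases called at 10000 UMIs. The CPM of CCK stayed higher in G1 under all 9 alternatives, with log2 values from 0.38 to 0.43.

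NPY changed direction: without the 2 NPY barcodes its log2 difference of CHLA9 over TC71 went from 1.27 to -2.78. The rho of GRP and SEC11C ran from 0.137 to 0.211 in CHLA9 and from 0.234 to 0.376 in TC71, lowest at 5000 UMIs in both (0.234 in TC71, from 0.348), where fewer UMIs are counted in each cell. Shares of cells followed depth, and 32 of 40 left the interval of their value at 10000 UMIs. Of 80 log2 differences between lines, 76 stayed within their counting interval and 3 moved in size alone. No paired analysis was possible because a line is a single library and nothing in the labels pairs them.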
